A study of Mus musculus with 8 samples.

Results

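The genes described here belong to fibroblast growth factor (FGF), bone morphogenetic protein (BMP) and transforming growth factor beta (TGF-beta) signalling. They were taken by gene symbol: the numbered Fgf, Bmp and Gdf genes, Fgfr1 to Fgfr4, the numbered Smad genes, Tgfb1 to Tgfb3, Tgfbr1 to Tgfbr3, and all symbols that begin with Bmpr or Acvr. The rule used no measured value and found 71 of the 23278 genes listed. It also takes in Bmp1, which encodes a protease, and Bmp2k, which encodes a kinase. RNA-seq had been run on 8 libraries of laser-captured lumbar spinal cord from FVB/N mice at postnatal day 1, with 2 libraries in each of 4 groups: motor neurons of SMA mice, motor neurons of WT mice, white matter of SMA mice and white matter of WT mice. SMA mice carried the genotype SMN2+/+;SMNΔ7+/+;Smn-/-, so they lacked mouse Smn in all cells and had the human SMN2 gene and an SMNΔ7 transgene, which models spinal muscular atrophy before symptoms. The control mice are labelled WT with no further allele. Motor neurons of the ventral horn, and surrounding white matter, were cut by UV laser from sections stained with hematoxylin. The labels name no animals, so a p-value here reflects no more than the variation among these libraries. The 2 libraries of each group differed in the sex-linked transcripts Xist and Ddx3y, so they were not technical repeats of the same RNA. Their spread includes that difference, and how many mice stand behind each library is not given. Regions of the same mouse may stand on both sides of a regional test.

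FGFs are mostly secreted proteins that bind receptor tyrosine kinases together with heparan sulfate and act through the RAS and MAP kinase cascade. In the developing spinal cord they act on neural progenitors, on the oligodendrocyte lineage and on motor neuron identity. The FGF homologous factors Fgf11 to Fgf14 form a separate branch that stays inside the cell and binds voltage-gated sodium channels. BMP, GDF and TGF-beta ligands bring together type I and type II receptor kinases. The type I receptor then phosphorylates receptor Smads, which join Smad4 and enter the nucleus, while Smad6 and Smad7 dampen the signal.

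Levels are deposited RPKM, reads scaled to the length of the gene model and to the library's depth, and are given for replicate 1 and then replicate 2 of each group. The scaling corresponded to 77500000 to 102800000 reads per library, so that 1 read in 1 kb of gene was worth 0.00972 to 0.0129 RPKM, and 11539 to 12796 genes had at least 1 RPKM. Rn45s, a ribosomal RNA gene, accounted for 19.4 to 33.4% of summed RPKM, and SMA motor neuron replicate 2 had both the highest Rn45s share and the fewest genes at 1 RPKM. Xist, the X-inactivation transcript, lay at 12.6 to 37.0 RPKM in replicate 1 of every group and at or below 0.0581 RPKM in every replicate 2. Ddx3y, a Y-linked gene, was listed at 0 in every replicate 1 and lay at 0.628 to 6.37 RPKM in every replicate 2, so the replicate number goes with sex-linked transcripts in all 4 groups. Smn1 was listed at 0 in the 4 SMA libraries and lay at 2.93 to 14.3 RPKM in the 4 WT libraries. A listed 0 is not proof that a gene was silent: the cholesterol enzyme gene Hmgcs1 also stood at 0 in all 8 libraries. The summed level of 8 motor neuron markers was 566 and 574 RPKM in SMA motor neurons and 700 and 715 RPKM in WT motor neurons, against 20.1 and 10.6 RPKM in SMA white matter and 11.6 and 7.97 RPKM in WT white matter. The summed level of 10 oligodendrocyte lineage markers was 175 and 134 RPKM in SMA motor neurons and 118 and 88.4 RPKM in WT motor neurons, against 4794 and 2599 RPKM in SMA white matter and 3745 and 1938 RPKM in WT white matter. Each capture was thus high in the markers of its label. The motor neuron captures were also higher in 9 spinal interneuron markers. These summed to 73.5 and 78.2 RPKM in SMA motor neurons and 65.4 and 40.6 RPKM in WT motor neurons. Their sums were 12.9 and 13.1 RPKM in SMA white matter and 12.2 and 4.22 RPKM in WT white matter. The part of interneurons in the values of the motor neuron captures was not tested. Oligodendrocyte lineage markers were low but not at 0 in the motor neuron captures. Astrocyte markers were lower there in sum than in white matter but not low. The 8 of them summed to 867 and 698 RPKM in SMA motor neurons and 790 and 712 RPKM in WT motor neurons. In white matter they summed to 1588 and 1353 RPKM in SMA and 1079 and 1226 RPKM in WT. The astrocyte list was split. On the log2(RPKM + 1) scale, WT motor neurons minus WT white matter, Gfap differed by -4.45 ± 0.32 and Aqp4 by -3.30 ± 0.45. Aldoc (0.33 ± 0.17) and S100b (0.093 ± 0.40) did not pass limma (adjusted p = 0.186 and 0.888). In such captures fewer cells of a type and less RNA per cell cannot be told apart.

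Of the 71 genes, 45 reached 1 RPKM in at least 2 libraries and were tested, 19 lay below that filter and 7 were listed at 0 in all libraries. Those listed at 0 were Fgf4, Fgf6, Fgf8, Fgf17, Fgf20, Bmp10 and Gdf3. The ligands made up most of the untested genes: 5 of 15 paracrine FGF ligands, 1 of 3 endocrine FGF ligands and 8 of 20 BMP and GDF ligands were tested. In contrast, all 4 FGF homologous factors, all 4 FGF receptors, all 3 TGF-beta ligands, 5 of 7 type I receptors, all 4 type II receptors, the type III receptor Tgfbr3 and all 8 Smads were tested. Below the filter were Fgf3, Fgf5, Fgf7, Fgf16, Fgf21, Fgf22, Fgf23, Bmp5, Bmp8a, Bmp8b, Bmp15, Gdf2, Gdf5, Gdf6, Gdf7, Gdf9, Gdf15, Acvr1c and Acvrl1. Their highest value in any library was 1.45 RPKM, for the endothelial type I receptor gene Acvrl1. Fgf23 reached 1.45 RPKM in SMA white matter replicate 1 and was listed at 0 in replicate 2 of the same group, so its level rests on 1 library.

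Many of these genes differed between the regions in both genotypes. Differences are given as log2(RPKM + 1) of motor neurons minus that of white matter, with their standard error, on which changes at low levels come out smaller than in RPKM. Between the SMA regions 20 of the 45 tested genes (44.4%) passed limma with a Benjamini-Hochberg adjusted p under 0.05, where 30.8% of all 13948 tested genes did. Of the 20, 7 were higher in SMA motor neurons (15.6%, against 13.6% of all genes) and 13 lower (28.9%, against 17.2% of all genes). Between the WT regions 20 passed as well (44.4%, against 28.4% of all genes). Of these, 10 were higher in WT motor neurons (22.2%, against 18.6%) and 10 lower (22.2%, against 9.85%). The higher calls lay mainly among the FGF genes, which were 14 of the 45 tested. Most lower calls lay among the BMP, GDF and TGF-beta genes, which were also most of those tested (31). In SMA motor neurons 6 of 14 tested FGF genes were higher and 3 lower, with a median difference of 0.85, while of 31 tested BMP, GDF and TGF-beta genes 1 was higher and 10 lower, with a median of -0.86. The median over all tested genes was -0.24. In WT the counts were 7 higher and 2 lower of 14 (median 1.43) and 3 higher and 8 lower of 31 (median -0.57), beside a median of 0.079 over all genes. The groups did not overlap for 11 genes higher in SMA motor neurons (24.4%, against 26.7% of all genes) and 24 lower (53.3%, against 37.2%), and for 17 higher in WT motor neurons (37.8%, against 39%) and 21 lower (46.7%, against 31%). The counts rested on single libraries: 24 passed in SMA without SMA motor neuron replicate 1, 12 without SMA white matter replicate 1 and 15 without its replicate 2, while 9 passed in WT without WT motor neuron replicate 1, 11 without its replicate 2, 14 without WT white matter replicate 1 and 12 without its replicate 2. A total of 14 genes passed in the same direction in both genotypes, which was 70% of each list, and 0 passed in opposite directions.

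**Figure D1:**
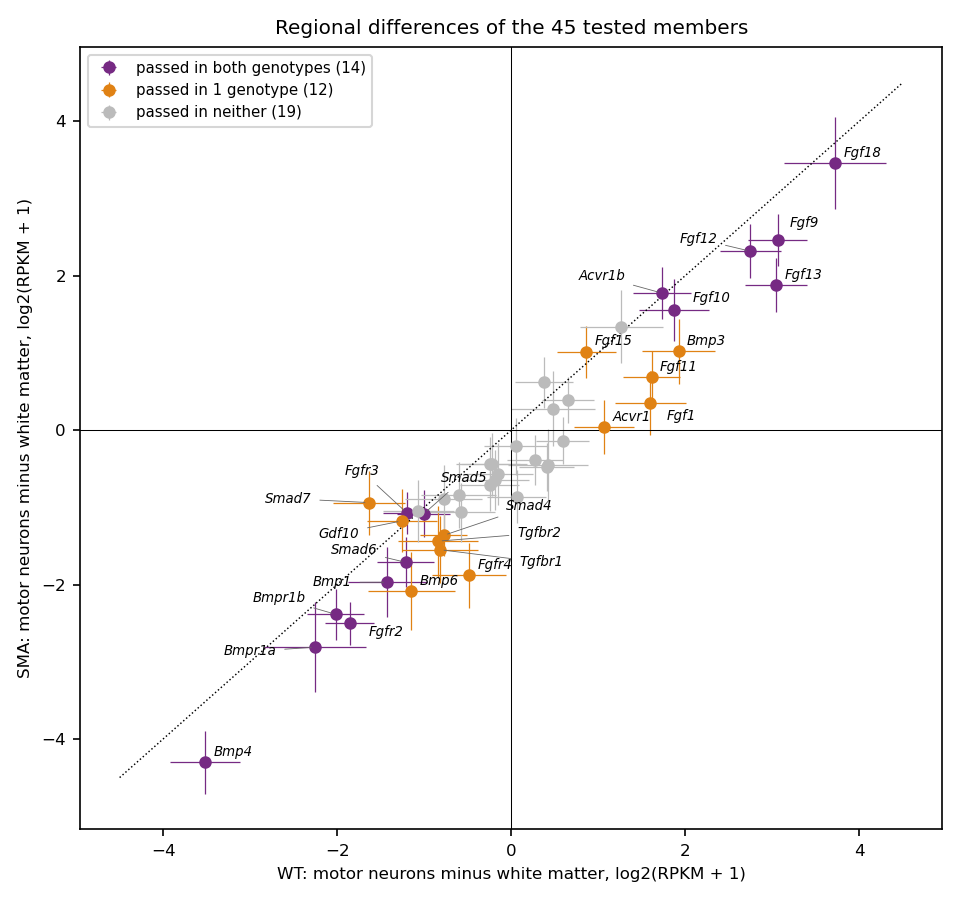
Regional difference of each of the 45 tested genes in SMA mice (y axis) and in WT mice (x axis), both as motor neurons minus white matter on the log2(RPKM + 1) scale, with standard errors as bars and the line of equal difference dotted. The 14 genes that passed limma in both genotypes lie in the upper right, led by Fgf18, and in the lower left, led by Bmp4; 12 passed in 1 genotype and 19 in neither.

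Among the secreted FGF ligands, motor neurons held more of 4 genes in SMA, Fgf15 included, and of 4 in WT. Fgf18, which acts on Fgfr3 in cartilage and bone, lay at 49.7 and 38.5 RPKM in SMA motor neurons and 39.7 and 38.3 RPKM in WT motor neurons, against 6.53 and 1.20 RPKM in SMA white matter and 3.98 and 0.848 RPKM in WT white matter. All 4 motor neuron libraries lay above all 4 white matter libraries, and the difference was 3.46 ± 0.59 in SMA (limma adjusted p = 0.00255) and 3.72 ± 0.59 in WT (0.00153). Fgf18 alone made up 64.5 to 78.4% of the summed RPKM of the 18 secreted FGF ligands in the motor neuron libraries. Fgf9, a ligand made by neurons, lay at 6.71 and 5.55 RPKM in SMA motor neurons and 9.18 and 6.65 RPKM in WT motor neurons, against 0.220 and 0.359 RPKM in SMA white matter, 0.120 RPKM in WT white matter replicate 1 and a listed 0 in its replicate 2. The groups did not overlap, and the difference was 2.46 ± 0.34 in SMA (limma adjusted p = 0.000876) and 3.06 ± 0.34 in WT (0.000222), the smallest p of the 45 genes between the WT regions. Fgf10, best known as a mesenchymal ligand of Fgfr2, was lower in level but had the same order, with 3.60 and 1.17 RPKM in SMA motor neurons and 3.21 and 2.97 RPKM in WT motor neurons, against 0.0904 and 0.0553 RPKM in SMA white matter and 0.0654 and 0.176 RPKM in WT white matter. Its difference was 1.56 ± 0.40 in SMA (limma adjusted p = 0.0173) and 1.87 ± 0.40 in WT (0.00740). The SMA call for Fgf10 was lost without SMA motor neuron replicate 1 (0.0665), SMA white matter replicate 1 (0.0748) or SMA white matter replicate 2 (0.0795) and in a fit of the 4 SMA libraries alone (0.0614). In WT the call did not survive the removal of motor neuron replicate 1 (0.0532).

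Fgf1, a broad ligand of all FGF receptors, passed between the WT regions alone. It lay at 0.423 and 1.75 RPKM in SMA motor neurons and 4.16 and 2.67 RPKM in WT motor neurons, against 0.542 and 0.560 RPKM in SMA white matter and 0.689 and 0.222 RPKM in WT white matter. The WT motor neuron libraries were the highest 2 of the 8, and SMA motor neuron replicate 1 lay within the white matter range. The SMA difference was 0.35 ± 0.41 (limma adjusted p = 0.542), and the WT difference was 1.60 ± 0.41 (0.0174), a call lost without WT motor neuron replicate 1 (0.122) or WT white matter replicate 2 (0.126). Fgf15, an endocrine FGF that acts on bile acid synthesis, lay at 1.37 and 0.726 RPKM in SMA motor neurons and 1.58 and 1.22 RPKM in WT motor neurons, was listed at 0 in both SMA white matter libraries, and lay at 0.433 and 0.206 RPKM in WT white matter. Its SMA difference passed narrowly (1.02 ± 0.34, limma adjusted p = 0.0454), with a size that depends on the pseudocount. That call was lost without SMA motor neuron replicate 1 (0.150) or either SMA white matter library (0.131 and 0.129), in a fit of the 4 SMA libraries alone (0.0878) and in a fit with the replicate number, and so the Xist level, as a term (0.0526). The WT difference of Fgf15 did not pass (0.86 ± 0.34, 0.0832). Fgf2, the other broad ligand, stayed between 0.419 and 1.59 RPKM in all libraries and did not pass in either genotype.

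Of the 4 intracellular FGF homologous factors, 2 were higher in motor neurons by the test in SMA and 3 in WT. Fgf12 lay at 37.1 and 20.7 RPKM in SMA motor neurons and 31.6 and 25.1 RPKM in WT motor neurons, against 5.49 and 4.14 RPKM in SMA white matter and 2.82 and 3.96 RPKM in WT white matter. Fgf13 lay at 22.2 and 14.1 RPKM in SMA motor neurons and 27.3 and 25.3 RPKM in WT motor neurons, against 4.26 and 3.91 RPKM in SMA white matter and 3.25 and 1.58 RPKM in WT white matter. For both genes every motor neuron library lay above every white matter library. The difference of Fgf12 was 2.32 ± 0.35 in SMA (limma adjusted p = 0.00143) and 2.75 ± 0.35 in WT (0.000483), and that of Fgf13 was 1.88 ± 0.35 in SMA (0.00405) and 3.04 ± 0.35 in WT (0.000282). Fgf11 had 10.7 and 8.29 RPKM in SMA motor neurons and 16.8 and 13.2 RPKM in WT motor neurons, against 4.83 and 6.15 RPKM in SMA white matter and 5.18 and 3.37 RPKM in WT white matter. It did not pass in SMA (0.69 ± 0.33, limma adjusted p = 0.138) and did in WT (1.61 ± 0.33, 0.00560; 0.0642 without WT motor neuron replicate 1 and 0.0587 without WT white matter replicate 2). Fgf14 ranged from 6.83 to 20.5 RPKM in motor neurons and from 3.23 to 5.85 RPKM in white matter without passing (limma adjusted p = 0.0584 in SMA and 0.0756 in WT).

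**Figure D2:**
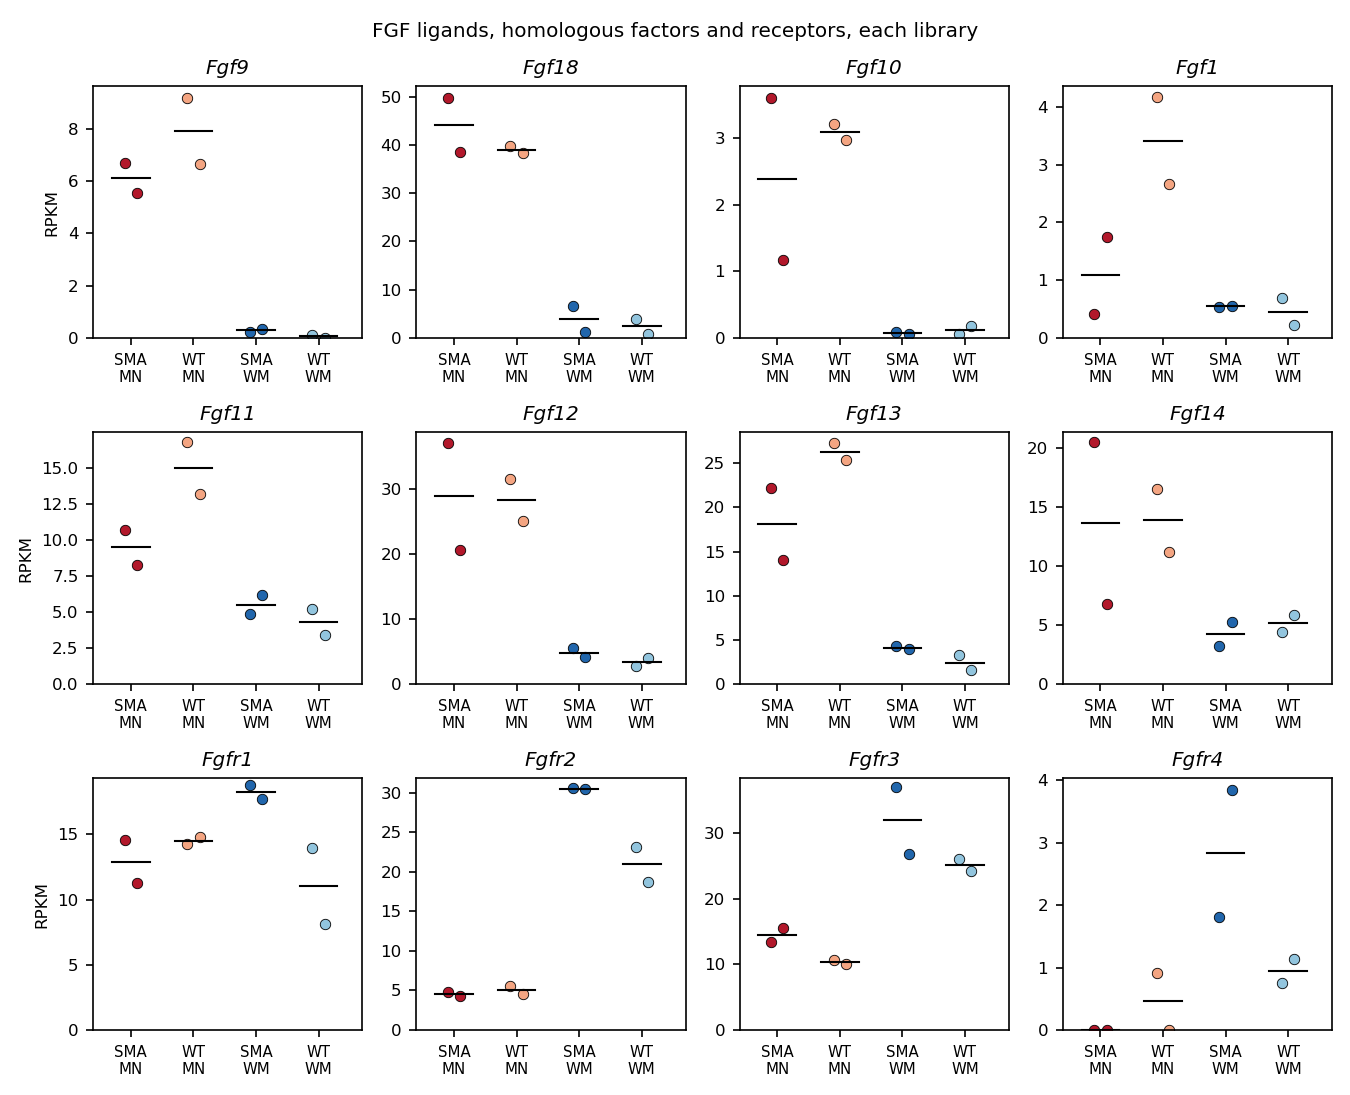
RPKM of 4 secreted FGF ligands, the 4 homologous factors and the 4 FGF receptors in each library (points) with the mean of 2 libraries per group (line); groups from left to right are SMA motor neurons (MN), WT motor neurons, SMA white matter (WM) and WT white matter. Fgf9, Fgf18, Fgf12 and Fgf13 are high in all motor neuron libraries, while Fgfr2 and Fgfr3 are high in all white matter libraries.

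Of the 4 FGF receptors, 3 were lower in motor neurons by the test in SMA and 2 in WT, and none was higher by the test. Fgfr2 lay at 4.83 and 4.29 RPKM in SMA motor neurons and 5.56 and 4.52 RPKM in WT motor neurons, against 30.5 and 30.4 RPKM in SMA white matter and 23.1 and 18.7 RPKM in WT white matter. Fgfr3, which marks astrocytes and their precursors in the spinal cord, lay at 13.4 and 15.5 RPKM in SMA motor neurons and 10.7 and 10.0 RPKM in WT motor neurons, against 37.0 and 26.8 RPKM in SMA white matter and 26.0 and 24.1 RPKM in WT white matter. No library of one region overlapped the other region for either gene. Fgfr2 fell by 2.50 ± 0.28 in SMA motor neurons (limma adjusted p = 0.000318) and by 1.86 ± 0.28 in WT motor neurons (0.00114) relative to white matter. Fgfr3 fell by 1.07 ± 0.27 in SMA (limma adjusted p = 0.0156) and by 1.20 ± 0.27 in WT (0.00936). The SMA call for Fgfr3 was lost without SMA white matter replicate 1 (limma adjusted p = 0.115) or in a fit of the 4 SMA libraries alone (0.0705), and the WT call without any single one of the 4 WT libraries (0.0505 to 0.0713). Fgfr4, the least abundant receptor, was listed at 0 in both SMA motor neuron libraries and in WT motor neuron replicate 2, and had 0.918 RPKM in WT motor neuron replicate 1, against 1.81 and 3.84 RPKM in SMA white matter and 0.750 and 1.14 RPKM in WT white matter. It passed in SMA (limma adjusted p = 0.00951), a call lost without SMA white matter replicate 2 (0.0679), and not in WT (0.437). Fgfr1 lay at 14.6 and 11.3 RPKM in SMA motor neurons and 14.2 and 14.8 RPKM in WT motor neurons, against 18.8 and 17.7 RPKM in SMA white matter and 14.0 and 8.14 RPKM in WT white matter, and did not pass in either genotype.

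The receptors' shares of their summed level are given as a description. The 3 shares were chosen after the levels had been seen, so no p-value is given for them. Fgfr1 made up 44.3 and 36.3% of the summed FGF receptor RPKM in SMA motor neurons and 45.4 and 50.4% in WT motor neurons, against 21.3 and 22.5% in SMA white matter and 21.9 and 15.6% in WT white matter. Over both genotypes its share was 44.1 ± 5.86% in motor neurons and 20.3 ± 3.17% in white matter (SD, n = 4 each). No motor neuron library overlapped a white matter library. Bmpr1a made up 19.4 ± 9.13% of the summed type I receptors in motor neurons, against 57.7 ± 6.50% in white matter. Fgf12 made up 37.6 ± 4.24% of the summed homologous factors in motor neurons, against 24.2 ± 5.72% in white matter. These shares did not overlap between the regions either.

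**Figure D3:**
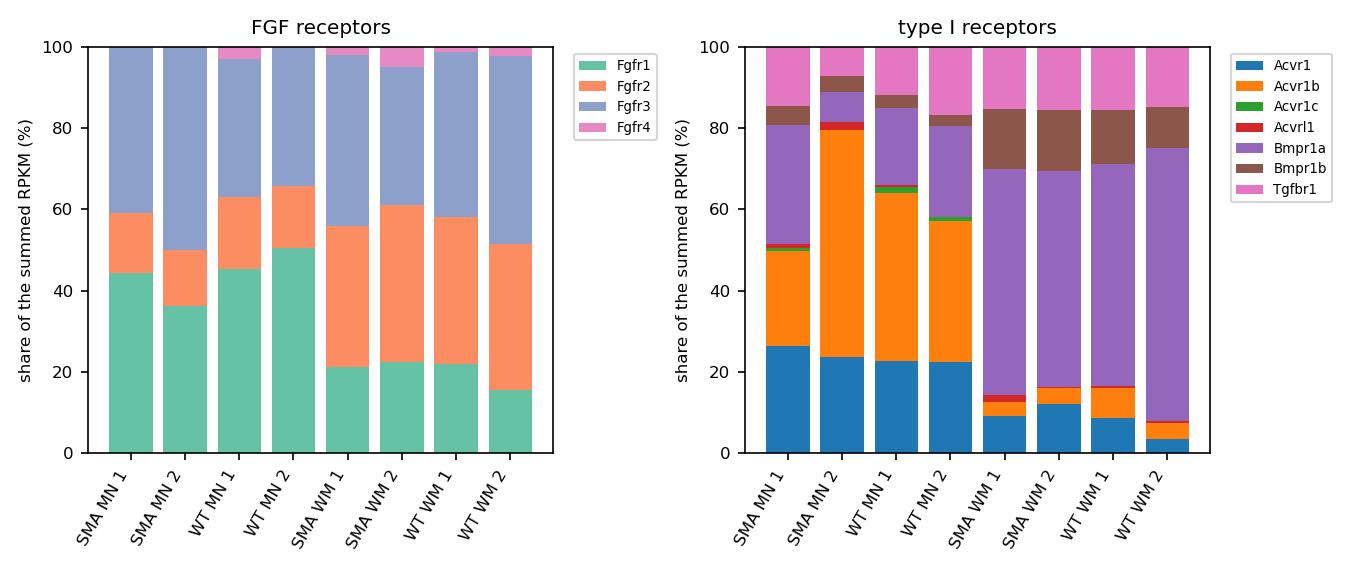
Share of each receptor in the summed RPKM of the 4 FGF receptors (left) and of the 7 type I receptors (right), as a stacked bar for each library, with motor neurons (MN) left of white matter (WM). Fgfr1 holds 36.3 to 50.4% of the FGF receptor sum in motor neurons and 15.6 to 22.5% in white matter, and Bmpr1a holds 7.39 to 29.3% of the type I sum in motor neurons and 53.0 to 67.3% in white matter.

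Among BMP and GDF ligands, Bmp4 had the largest regional difference of the 45 genes in SMA. Bmp4, a ligand of the dorsal midline that holds back oligodendrocyte maturation, lay at 0.319 and 1.60 RPKM in SMA motor neurons and 0.683 and 1.69 RPKM in WT motor neurons, against 35.9 and 35.2 RPKM in SMA white matter and 26.5 and 20.6 RPKM in WT white matter. The regions were far apart in every library: mean levels were 37.1-fold lower in SMA motor neurons and 19.8-fold lower in WT motor neurons than in the matching white matter. The log2 difference was -4.30 ± 0.40 in SMA (limma adjusted p = 0.000142) and -3.52 ± 0.40 in WT (0.000267). Bmp4 made up 43.9 to 52.6% of the summed BMP and GDF ligand RPKM in white matter and 0.848 to 7.04% in motor neurons. Bmp3, an atypical BMP that binds activin receptors and antagonizes other BMPs, went the other way, with 3.42 and 2.79 RPKM in SMA motor neurons and 3.31 and 3.68 RPKM in WT motor neurons, against 0.355 and 2.02 RPKM in SMA white matter and 0.263 and 0.110 RPKM in WT white matter. The difference did not pass in SMA (1.02 ± 0.42, limma adjusted p = 0.0917) and did in WT (1.92 ± 0.42, 0.00772; 0.0564 without WT motor neuron replicate 2 and 0.0603 without WT white matter replicate 2). Bmp6 lay at 0.345 and 0.625 RPKM in SMA motor neurons and 0.834 and 0.428 RPKM in WT motor neurons, against 5.60 and 4.96 RPKM in SMA white matter and 1.04 and 5.32 RPKM in WT white matter. WT white matter replicate 1 lay close to the motor neurons, and Bmp6 passed in SMA (-2.08 ± 0.50, limma adjusted p = 0.0128; 0.0744 without SMA white matter replicate 1 and 0.0591 without its replicate 2) and not in WT (-1.15 ± 0.50, 0.118).

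Gdf10, the ligand most like Bmp3, lay at 1.08 and 0.285 RPKM in SMA motor neurons and 0.289 and 0.0463 RPKM in WT motor neurons, against 2.71 and 2.69 RPKM in SMA white matter and 2.70 and 1.08 RPKM in WT white matter. It missed the threshold in SMA (-1.18 ± 0.41, limma adjusted p = 0.0531) and passed in WT (-1.26 ± 0.41, 0.0443). In WT it no longer passed without motor neuron replicate 1 (0.117), its replicate 2 (0.205) or white matter replicate 1 (0.245), and with no filter on low values (0.0698). Bmp2, Bmp7, Gdf1 and Gdf11 did not pass between regions in either genotype. Over the 8 libraries Bmp2 ranged from 0.594 to 3.0 RPKM and Gdf11 from 2.79 to 5.62 RPKM. Of the TGF-beta ligands, Tgfb2 held 59.8 to 88.8% of their summed RPKM in every library. It lay at 12.5 and 8.02 RPKM in SMA motor neurons and 12.8 and 11.5 RPKM in WT motor neurons, against 15.3 and 11.7 RPKM in SMA white matter and 8.36 and 11.7 RPKM in WT white matter. The groups overlapped in both genotypes, and none of the 3 TGF-beta ligands passed between regions in either genotype (limma, smallest adjusted p = 0.0761, for Tgfb1 in SMA). Tgfb1 ranged from 0.173 to 3.04 RPKM and Tgfb3 from 0.304 to 3.05 RPKM over the 8 libraries.

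The type I receptors split by region. Bmpr1a, a BMP receptor, lay at 12.9 and 2.30 RPKM in SMA motor neurons and 7.39 and 9.15 RPKM in WT motor neurons, against 46.5 and 46.5 RPKM in SMA white matter and 29.9 and 61.5 RPKM in WT white matter. Bmpr1b, its paralog, lay at 2.08 and 1.25 RPKM in SMA motor neurons and 1.33 and 1.20 RPKM in WT motor neurons, against 12.2 and 13.3 RPKM in SMA white matter and 7.19 and 9.27 RPKM in WT white matter. Both were lower in every motor neuron library than in any white matter library. Bmpr1b fell by 2.39 ± 0.33 in SMA (limma adjusted p = 0.000922) and by 2.02 ± 0.33 in WT (0.00180). Bmpr1a fell by 2.81 ± 0.59 in SMA (limma adjusted p = 0.00660) and by 2.25 ± 0.59 in WT (0.0181). The WT call for Bmpr1a was lost without WT motor neuron replicate 1 (0.108), its replicate 2 (0.0752) or WT white matter replicate 2 (0.150), and with no filter on low values (0.0699). Acvr1b, a type I receptor for activins, was the type I receptor that passed upward in both genotypes, with 10.3 and 17.5 RPKM in SMA motor neurons and 16.2 and 14.3 RPKM in WT motor neurons, against 2.89 and 3.57 RPKM in SMA white matter and 4.06 and 3.75 RPKM in WT white matter. It was higher by 1.77 ± 0.33 in SMA (limma adjusted p = 0.00408) and by 1.73 ± 0.33 in WT (0.00420).

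Acvr1 and Tgfbr1, the other tested type I receptors, each passed the regional test in 1 genotype, and neither passed the test of a difference between genotypes. Acvr1, a BMP receptor, lay at 11.6 and 7.34 RPKM in SMA motor neurons and 8.95 and 9.25 RPKM in WT motor neurons, against 7.62 and 10.5 RPKM in SMA white matter and 4.73 and 3.07 RPKM in WT white matter. It did not pass in SMA (0.039 ± 0.35, limma adjusted p = 0.942) and did in WT (1.06 ± 0.35, 0.0455), and the WT call was lost without any single WT library (limma adjusted p = 0.0730 to 0.257), with either rescaling of the libraries (0.0518 and 0.0586), with the replicate number as a term (0.0562) and with no filter on low values (0.0701). Tgfbr1, the TGF-beta type I receptor, lay at 6.37 and 2.19 RPKM in SMA motor neurons and 4.63 and 6.84 RPKM in WT motor neurons, against 12.8 and 13.6 RPKM in SMA white matter and 8.48 and 13.5 RPKM in WT white matter. It passed in SMA (-1.55 ± 0.43, limma adjusted p = 0.0239) and not in WT (-0.82 ± 0.43, 0.189). The SMA call was lost without SMA motor neuron replicate 2 (0.0796) or either SMA white matter library (0.101 and 0.114), in a fit of the 4 SMA libraries alone (0.0762) and with no filter on low values (0.0609).

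Of the type II receptors, Bmpr2 was the most abundant in every library, at 75.0 to 85.3% of their summed RPKM. It lay at 80.0 and 44.4 RPKM in SMA motor neurons and 78.6 and 66.5 RPKM in WT motor neurons, against 65.1 and 66.3 RPKM in SMA white matter and 40.7 and 55.9 RPKM in WT white matter, and did not pass in either genotype. Tgfbr2, the TGF-beta type II receptor, lay at 2.83 and 0.819 RPKM in SMA motor neurons and 1.75 and 1.51 RPKM in WT motor neurons, against 8.94 and 4.15 RPKM in SMA white matter and 3.31 and 4.14 RPKM in WT white matter. It was lower in SMA motor neurons than in SMA white matter by the test (-1.44 ± 0.46, limma adjusted p = 0.0393) and did not pass in WT (-0.84 ± 0.46, 0.202). The SMA call was lost without SMA motor neuron replicate 2 (0.154) or SMA white matter replicate 1 (0.248), in a fit of the 4 SMA libraries alone (0.121), with no filter (0.0944), with a pseudocount of 0.1 RPKM (0.0504) and after quantile normalization (0.0513). Acvr2a, Acvr2b and the co-receptor Tgfbr3 did not pass between regions. Over the 8 libraries Acvr2a lay between 4.46 and 14.8 RPKM, Acvr2b between 0.619 and 5.60 RPKM and Tgfbr3 between 0.762 and 3.40 RPKM.

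Of the 8 Smads, 4 were lower in motor neurons by the test in at least 1 genotype. Smad6, an inhibitory Smad that acts mainly on BMP signals, was almost undetected in motor neurons, with 2 reads in each SMA motor neuron library (0.00824 and 0.00817 RPKM) and 26 and 38 reads in the WT motor neuron libraries (0.0961 and 0.165 RPKM). White matter had 2.26 and 2.35 RPKM in SMA and 2.01 and 1.28 RPKM in WT. The groups did not overlap, and the difference was -1.71 ± 0.33 in SMA (limma adjusted p = 0.00435) and -1.21 ± 0.33 in WT (0.0207; 0.0851 to 0.113 without WT motor neuron replicate 1, its replicate 2 or WT white matter replicate 1). Smad7, the inhibitory Smad with the broader range, lay at 7.0 and 2.65 RPKM in SMA motor neurons and 2.98 and 2.50 RPKM in WT motor neurons, against 9.89 and 8.86 RPKM in SMA white matter and 13.1 and 8.53 RPKM in WT white matter. It did not pass in SMA (-0.94 ± 0.41, limma adjusted p = 0.113) and did in WT (-1.63 ± 0.41, 0.0161; 0.0737 to 0.116 without WT motor neuron replicate 1, its replicate 2 or WT white matter replicate 1).

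Smad4, the common partner, lay at 8.05 and 8.60 RPKM in SMA motor neurons and 8.86 and 11.0 RPKM in WT motor neurons, against 21.9 and 24.2 RPKM in SMA white matter and 16.3 and 19.0 RPKM in WT white matter. It passed in SMA (-1.36 ± 0.27, limma adjusted p = 0.00540) and missed the threshold in WT (-0.78 ± 0.27, 0.0585). Smad5, a receptor Smad of BMP signals, lay at 10.5 and 6.68 RPKM in SMA motor neurons and 9.01 and 10.4 RPKM in WT motor neurons, against 17.6 and 20.2 RPKM in SMA white matter and 18.3 and 22.9 RPKM in WT white matter. Its regions did not overlap, and it passed in SMA (-1.08 ± 0.30, limma adjusted p = 0.0244) and in WT, where it fell by 1.00 ± 0.30 (0.0346). The SMA call for Smad5 was lost without SMA motor neuron replicate 2 (limma adjusted p = 0.0696) or either SMA white matter library (0.0808 and 0.127) and in a fit of the 4 SMA libraries alone (0.0909), and the WT call without any single WT library (0.0795 to 0.201). Smad1, which shares this role, lay at 24.5 and 18.4 RPKM in SMA motor neurons and 16.3 and 20.5 RPKM in WT motor neurons, against 19.4 and 13.2 RPKM in SMA white matter and 11.0 and 11.6 RPKM in WT white matter. Smad1 did not pass, and neither did Smad2 (5.03 to 13.7 RPKM over the 8 libraries), Smad9 (2.68 to 8.05 RPKM) or Smad3. Smad1 made up 30.3 to 37.2% of the summed Smad RPKM in motor neurons and 13.8 to 19.4% in white matter. Outside the pathway proper, the protease gene Bmp1 lay at 1.01 and 4.23 RPKM in SMA motor neurons and 3.50 and 4.40 RPKM in WT motor neurons, against 14.0 and 9.80 RPKM in SMA white matter and 14.3 and 10.4 RPKM in WT white matter. It passed in SMA (-1.97 ± 0.46, limma adjusted p = 0.0107; 0.0857 without SMA white matter replicate 1 and 0.0548 in a fit of the 4 SMA libraries alone). It also passed in WT (-1.42 ± 0.46, limma adjusted p = 0.0428), a call lost without any single WT library (0.110 to 0.200), with a pseudocount of 0.1 RPKM (0.0745), with the replicate number as a term (0.0579) and with no filter (0.10). The kinase gene Bmp2k ranged from 1.40 to 6.61 RPKM and did not pass.

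**Figure D4:**
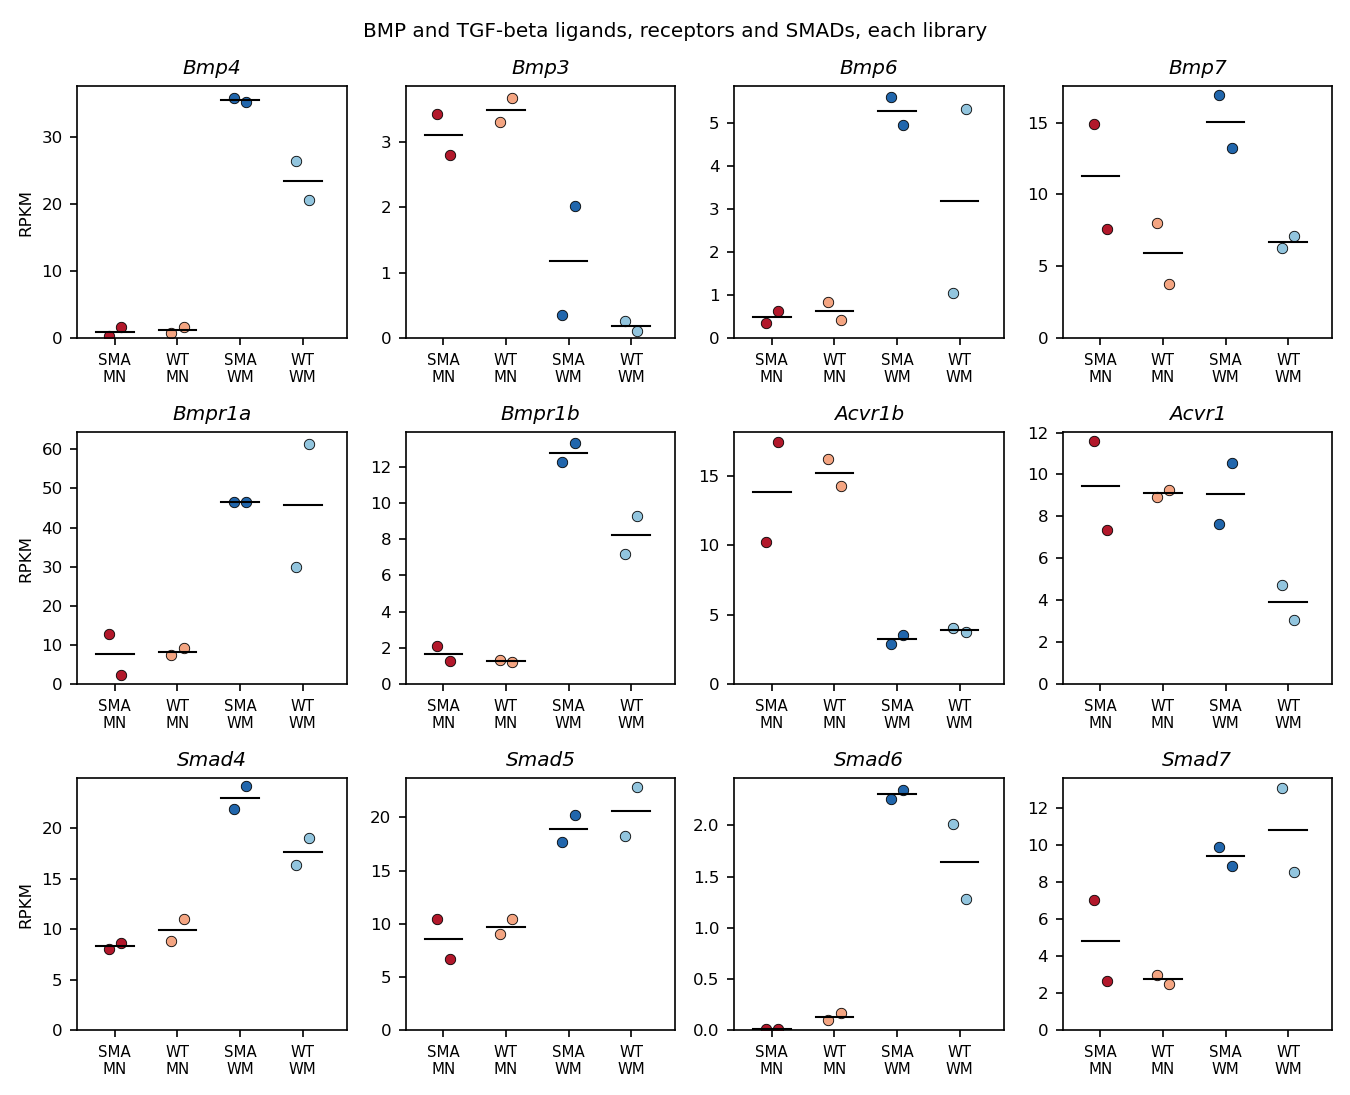
RPKM of 4 BMP ligands, 4 type I receptors and 4 Smads in each library (points) with the mean of 2 libraries per group (line), in the order SMA motor neurons (MN), WT motor neurons, SMA white matter (WM), WT white matter. Bmp4, Bmpr1a, Bmpr1b, Smad4, Smad5 and Smad6 are high in all 4 white matter libraries, Acvr1b is high in all 4 motor neuron libraries, and Bmp7 is higher on average in SMA than in WT in both regions.

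The promoters of 50 of the 71 genes were matched in RefSeq (GRCm38.p6), each a window of 300 bases around the gene's start, most of it upstream. The 3 shown are those of Fgf18, Bmp4 and Smad6. Fgf18 and Bmp4 had the largest regional differences upward and downward. Smad6 was the 1 gene of the 50 with a palindromic Smad-binding box (GTCTAGAC, in capitals) in its promoter.
Fgf18, chr11:33147351-33147650, minus strand: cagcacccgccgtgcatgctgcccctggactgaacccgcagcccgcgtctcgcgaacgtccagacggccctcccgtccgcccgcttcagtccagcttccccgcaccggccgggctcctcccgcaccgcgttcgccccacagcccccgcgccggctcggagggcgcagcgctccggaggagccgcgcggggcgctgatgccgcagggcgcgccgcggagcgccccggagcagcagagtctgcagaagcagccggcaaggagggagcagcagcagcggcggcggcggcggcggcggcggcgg
Bmp4, chr14:46390620-46390919, minus strand: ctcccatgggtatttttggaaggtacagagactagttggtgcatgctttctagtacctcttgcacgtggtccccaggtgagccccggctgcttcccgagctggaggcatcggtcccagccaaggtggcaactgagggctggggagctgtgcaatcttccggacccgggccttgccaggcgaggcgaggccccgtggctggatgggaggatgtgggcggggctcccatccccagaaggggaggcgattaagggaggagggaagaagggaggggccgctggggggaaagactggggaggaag
Smad6, chr9:64022010-64022309, minus strand: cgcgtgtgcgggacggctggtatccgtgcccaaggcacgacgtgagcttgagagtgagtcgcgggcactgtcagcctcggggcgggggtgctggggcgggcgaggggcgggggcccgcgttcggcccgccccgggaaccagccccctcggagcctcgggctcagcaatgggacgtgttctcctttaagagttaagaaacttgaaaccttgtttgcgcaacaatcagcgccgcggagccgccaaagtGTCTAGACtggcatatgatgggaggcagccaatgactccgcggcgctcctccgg
GTCTAGAC reads the same on both strands and was found in 0.213% of 32851 promoters. The GC-rich box GGCGCC, also the same on both strands, was found for 13 of the 50 genes (26%) and in 11.9% of all promoters. TATAAA, searched on both strands, was found for 8 of the 50 genes (16%) and in 13.6% of all promoters. The 50 were counted per gene and the background per promoter, so these shares are not in the same unit. The promoters of Fgf18 and Bmp4 held none of them in this window.

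Other genes of these pathways were described from lists. Their counts are read against the shares of all tested genes that passed, which were 13.6% higher and 17.2% lower in SMA motor neurons and 18.6% higher and 9.85% lower in WT motor neurons. Of 9 tested BMP and SMAD1/5 target genes, 8 were lower in motor neurons than in white matter of SMA mice (limma, adjusted p under 0.05; median -2.54), and all 9 were in WT mice (median -2.23). Among them, Id1 and Id3, which encode inhibitors of basic helix-loop-helix factors, differed by -3.04 ± 0.31 (limma adjusted p = 0.000144) and -3.39 ± 0.37 (0.000202) in WT. Id3 lay at 11.3 and 27.8 RPKM in SMA motor neurons and 16.8 and 19.3 RPKM in WT motor neurons, against 257 and 188 RPKM in SMA white matter and 206 and 190 RPKM in WT white matter. Secreted BMP and activin antagonists went mostly the other way. Of 14 tested, SMA motor neurons had 7 higher and 3 lower (median 1.14), and WT motor neurons had 8 higher and 1 lower (median 1.98). The follistatin-like gene Fstl4 was higher by 3.30 ± 0.35 in WT motor neurons (limma adjusted p = 0.000186), and Nbl1, a BMP-binding DAN family gene, was lower by the test (-1.97 ± 0.48, 0.0139). Of 7 BMP co-receptors and membrane modulators 1 was higher and 3 lower in each genotype (median -0.58 in SMA and -0.67 in WT). The BMP co-receptor genes Rgmb (2.28 ± 0.33, limma adjusted p = 0.000846) and Rgma (-1.26 ± 0.27, 0.00714) had opposite signs, and Tril, a membrane modulator, was lower by the test (-1.54 ± 0.28, 0.00333).

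The FGF lists held calls in both directions. Their balance differed between the genotypes, as it did for all genes. Of all genes called between the regions, 44.2% were higher in motor neurons in SMA and 65.4% in WT as deposited. After median-of-ratios scaling these shares were 53.8% and 55.6%. Counts of the lists after scaling are not given, and the difference between the genotypes was not tested for the lists. Of 25 tested co-receptor, adaptor and heparan sulfate genes, SMA motor neurons had 4 higher and 5 lower (median -0.048) and WT motor neurons 7 higher and 4 lower (median 0.18). In WT they included the sulfotransferase gene Hs6st1 (2.07 ± 0.36, limma adjusted p = 0.00242) and the adaptor gene Grb2 (1.72 ± 0.32, 0.00333) on the higher side, and the adaptor gene Gab1 (-1.85 ± 0.28, 0.00126) and the extracellular sulfatase gene Sulf1 (-2.07 ± 0.44, 0.00701) on the lower side. Of 15 FGF feedback inhibitors and targets, SMA motor neurons had 3 higher and 4 lower (median -0.28) and WT motor neurons 4 higher and 2 lower (median -0.11), with the phosphatase gene Dusp4 (1.34 ± 0.33, limma adjusted p = 0.0137) and the decoy receptor gene Fgfrl1 (-1.33 ± 0.31, 0.0107) as examples. Of 20 TGF-beta latency and activation genes 9 were lower and 0 higher in SMA motor neurons (median -1.14), and 8 lower and 1 higher in WT motor neurons (median -0.67). Of 15 TGF-beta and SMAD2/3 targets 7 were lower and 1 higher in SMA (median -0.54), and 5 lower and 1 higher in WT (median -0.21). In WT the lower ones were led by the matrix genes Bgn (-2.75 ± 0.31, limma adjusted p = 0.000244), Col1a1 (-3.94 ± 0.40, 0.000146) and Col1a2 (-3.12 ± 0.33, 0.000187). Col1a1 and Col1a2 also stand in the list of fibroblast or meninges markers, whose summed level was 28.0 and 13.2 RPKM in SMA motor neurons and 13.0 and 14.5 RPKM in WT motor neurons, against 264 and 171 RPKM in SMA white matter and 84.1 and 124 RPKM in WT white matter. Slc13a4, a meningeal marker of that list, was listed at 0 in all 4 motor neuron libraries, and the part of such cells in the white matter values was not tested. Among 23 SMAD regulators and partners, SMA motor neurons had 1 higher and 5 lower (median -0.37) and WT motor neurons 2 higher and 5 lower (median 0.084), a share called in WT near that of all genes. The transcription factor gene Zeb2 had the smallest p in WT (-3.31 ± 0.42, limma adjusted p = 0.000448).

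The comparison of SMA with WT motor neurons, the main question of the series, gave no call for these genes. Of the 45 tested, 0 passed limma with Benjamini-Hochberg adjustment, where 0% of all genes did, and 1 had an unadjusted p under 0.05, against 4.37% of all genes. The median difference, SMA minus WT, was -0.17 for the 45 genes and -0.050 for all genes, and 13 of the 45 lay above 0, against 44.2% of all genes. The sign of the median differed between the SMA libraries: against the WT mean the median of the 45 genes was 0.049 in SMA replicate 1, with 25 above 0, and -0.28 in SMA replicate 2, with 13 above 0, while the medians over all genes were 0.11 and -0.18. The groups did not overlap with SMA higher for 2 genes (4.44%, against 12.7% of all genes), Gdf1 and Fgfr3. They did not overlap with SMA lower for 6 genes (13.3%, against 15.5% of all genes), which were Fgf1, Fgf2, Fgf11, Fgf13, Smad4 and Smad6. Fgf1, given above, had the smallest p of the 45 (-1.14 ± 0.41, unadjusted p = 0.0209, limma adjusted p = 1.00), and its SMA replicates differed from each other by more than its WT replicates did in ratio. Gdf1, a nodal-related ligand, lay at 12.3 and 15.7 RPKM in SMA motor neurons and 11.1 and 6.84 RPKM in WT motor neurons, against 8.34 and 9.11 RPKM in SMA white matter and 7.62 and 5.54 RPKM in WT white matter. Its motor neuron difference was 0.62 ± 0.33 (limma adjusted p = 1.00). Exons of Gdf1 overlap those of Cers1 on the same strand in the GENCODE annotation, so its reads are uncertain. Glial markers also differed in level in this comparison, with 0 past the test. Of 8 microglia markers 7 lay above 0 and 6 did not overlap, with SMA higher (median 0.99), and they summed to 88.9 and 78.5 RPKM in SMA motor neurons and 27.0 and 33.3 RPKM in WT motor neurons. Of 10 oligodendrocyte lineage markers 8 lay above 0 and 6 did not overlap, with SMA higher (median 0.48), and the sums are given above. The summed astrocyte markers, given above, overlapped between the genotypes. The 8 motor neuron markers summed to 566 and 574 RPKM in SMA motor neurons and 700 and 715 RPKM in WT motor neurons. The part of these cell types in these values was not tested. Of the listed pathway genes 0 passed either. Dusp4 lay at 11.3 and 15.5 RPKM in SMA motor neurons and 5.27 and 7.03 RPKM in WT motor neurons, a difference of 1.01 ± 0.33 (unadjusted p = 0.0126, limma adjusted p = 0.888).

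In white matter, SMA values were higher than WT values for most genes of the whole table, and these genes followed. The median difference over all genes was 0.27 on the deposited scale and 0.0015 after median-of-ratios scaling. For the 45 genes it was 0.36 on the deposited scale and 0.094 after that scaling. Of the 45, 35 lay above 0 (77.8%, against 80% of all genes), and 27 did once libraries were scaled by median of ratios, or 26 by quantile normalization. By limma 0 of 45 passed (0% of all genes), with 3 at an unadjusted p under 0.05, against 6.31% of all genes. The groups did not overlap with SMA higher for 23 genes (51.1%, against 39.7% of all genes) and with SMA lower for 3 (6.67%, against 4.17%). Acvr1 had the smallest p: its level, given above, was 9.08 ± 2.07 RPKM in SMA white matter and 3.90 ± 1.18 RPKM in WT white matter (SD, n = 2 libraries each). The difference was 1.05 ± 0.35 (unadjusted p = 0.0137, limma adjusted p = 0.727) and 0.76 after median-of-ratios scaling. Fgfr1 differed by 0.72 ± 0.31 (limma adjusted p = 0.741) and by 0.41 after that scaling. The 4 FGF receptors lay above 0 on the deposited scale, and 3 of the 4 did after either rescaling, with Fgfr3 at -0.0032 and -0.019. Of the 8 BMP and GDF ligands all lay above 0 on the deposited scale and 7 did after either rescaling. Markers of several cell types lay higher in SMA white matter too, with 0 past the test. The groups did not overlap, with SMA higher, for 7 of 8 markers of fibroblasts or meninges (median 1.04), 7 of 8 of microglia (0.53), 6 of 8 of endothelium (0.69), 5 of 6 of pericytes or smooth muscle (0.79), 5 of 8 of astrocytes (0.41) and 5 of 10 of the oligodendrocyte lineage (0.43). These marker counts and medians are on the deposited scale. There 39.7% of all genes did not overlap with SMA higher, and the median over all genes was 0.27. Rescaled marker values are not given. The part of these cell types in the white matter values of these genes was not tested.

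Bmp7, a BMP ligand made in many tissues, meninges included, was the gene whose difference was largest relative to its error over both regions together. It lay at 14.9 and 7.63 RPKM in SMA motor neurons and 8.05 and 3.74 RPKM in WT motor neurons, against 16.9 and 13.2 RPKM in SMA white matter and 6.26 and 7.07 RPKM in WT white matter. The white matter groups did not overlap, while SMA motor neuron replicate 2 lay below WT motor neuron replicate 1. The difference was 0.84 ± 0.41 in motor neurons (limma adjusted p = 1.00), 1.06 ± 0.41 in white matter (0.741) and 0.95 ± 0.29 over both (unadjusted p = 0.00901, adjusted 0.761). After median-of-ratios scaling these became 0.87, 0.75 and 0.81. Smad3, a receptor Smad of TGF-beta and activin signals, had the next smallest p over both regions (0.53 ± 0.24, unadjusted p = 0.0531, limma adjusted p = 0.824). It lay at 3.08 and 5.42 RPKM in SMA motor neurons and 2.86 and 3.45 RPKM in WT motor neurons, against 7.06 and 7.64 RPKM in SMA white matter and 4.07 and 3.76 RPKM in WT white matter. Of the 45 genes 0 passed over both regions (limma; 0% of all genes), and 1, Bmp7, had an unadjusted p under 0.05, against 5.99% of all genes.

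**Figure D5:**
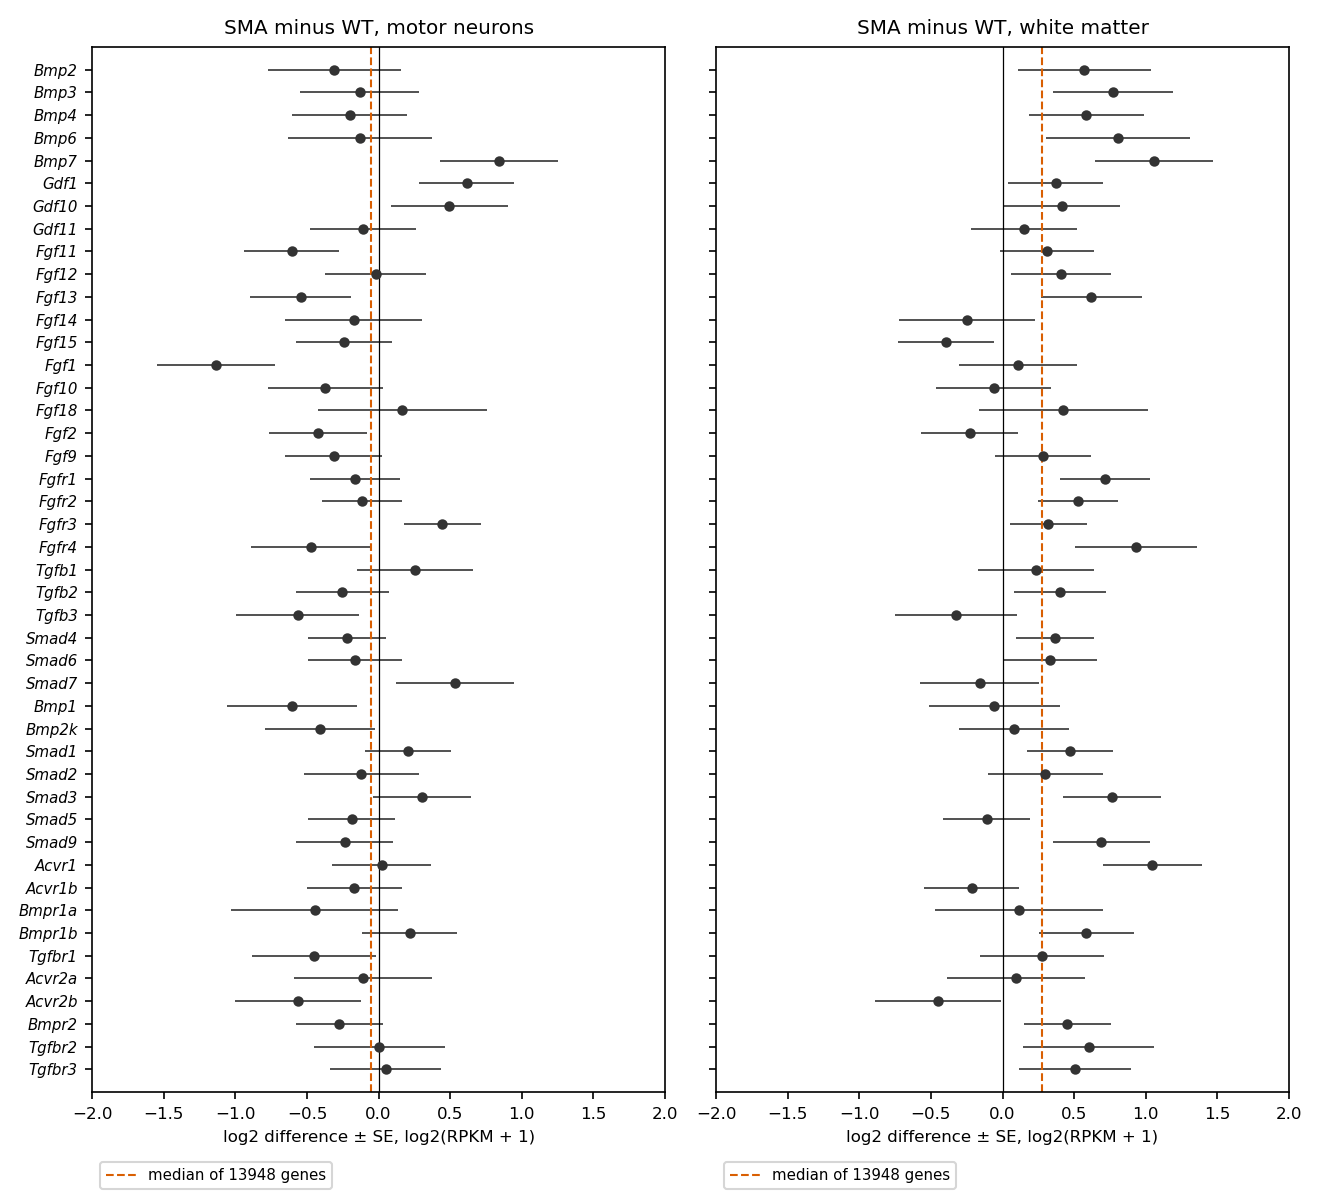
Difference between SMA and WT (SMA minus WT, log2(RPKM + 1), points with standard errors) for each of the 45 tested genes in motor neurons (left) and white matter (right), with the median of all 13948 tested genes as a dashed line. In white matter most genes lie near a dashed line that itself sits at 0.27, Acvr1 and Bmp7 lie farthest to the right, and no gene passed limma after adjustment in either region.

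Whether the genotype difference itself differed between regions was tested as an interaction, and 0 of 45 genes passed (limma, smallest adjusted p = 0.883; 0% of all genes). In the same limma fit 2 genes had an unadjusted p under 0.05, against 4.97% of all genes. They were Fgfr4 (-1.40 ± 0.60, limma unadjusted p = 0.0429, adjusted p = 0.883) and Fgf13 (-1.16 ± 0.50, limma unadjusted p = 0.0435, adjusted p = 0.883). For Fgf13 the SMA libraries were both below the WT ones in motor neurons and both above them in white matter. Smad4 and Smad6 had the same order, with interaction differences of -0.59 ± 0.38 (limma adjusted p = 0.883) and -0.50 ± 0.46 (0.888). The share of all genes with this order was not computed. The median interaction difference over all genes was -0.33 on the deposited scale and -0.030 after median-of-ratios scaling. For the 45 genes it was -0.46 and -0.19. After that scaling the difference was -0.87 for Fgf13, -0.23 for Smad4 and -0.27 for Smad6. The same test bears on the 12 genes that passed between regions in 1 genotype: none of them passed it, so their regional differences were not shown to be unequal in SMA and WT, nor to be equal.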

How the data were processed

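Per the labels' protocols, RNA of laser captures was purified, amplified to double-stranded cDNA with the NuGEN Ovation system, sheared and built into libraries. The authors deposited RPKM per gene symbol for 8 libraries. The authors used TopHat, bedtools, DESeq and mm9, per the submitters' processing notes. Versions, the annotation, the counting rule and any use of strand were not given in the sources used. Reads of genes whose exons overlap others (among them Gdf1, Fgf2, Fgf22, Bmp4, Bmp6, Bmp2k, Acvr2a and Fgfr2) are uncertain. RPKM are not counts, so limma 3.58.1 (R 4.3.3) was fitted on log2(RPKM + 1) with 4 group means over all 8 libraries and a trend. The 13948 genes with at least 1 RPKM in at least 2 libraries entered. Tests were two-sided in 6 contrasts, with Benjamini-Hochberg adjustment over these genes (threshold 0.05). The fit was tested on simulated data.

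Read numbers came from the steps between low RPKM values: 97.4 to 98.6% of small RNA genes above 0 gave whole reads within 0.02. These cover counting error only. Genes named are, per role, those that passed (up to 4, by p) and the highest in level, and the 4 smallest p in each genotype contrast. From each list the 2 genes with the smallest p on each side between WT regions and the smallest in each genotype contrast could be named; other genes with values, such as Fgf2, Fgf14, Tgfb1 and Fgf23, were named after their values were seen. A gene of the lists that this rule would name is not reported here. Members and lists were chosen with earlier results of these data known. Python 3.11.15 with pandas 2.3.3, numpy 2.4.6 and matplotlib 3.10.9 was used for the rest. Overlaps were read from GENCODE M21 by name and promoters from RefSeq.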

Additional observations from a re-analysis of the deposited data

How the results depend on the processing

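The number of these genes that passed between the SMA regions was 20; with 1 SMA library left out it ranged from 12 (SMA white matter replicate 1) to 24 (SMA motor neuron replicate 1), and it was 13 when only the 4 SMA libraries were fitted, which has fewer samples. Between the WT regions it was 20, and with 1 WT library left out it ranged from 9 (without WT motor neuron replicate 1) to 14 (without WT white matter replicate 1), with 11 without WT motor neuron replicate 2 and 12 without WT white matter replicate 2. Where 1 library was left out, the lone sample of its group was assumed to vary like the other groups. Of all genes called between the SMA regions, 44.2% were higher in motor neurons as deposited, 53.8% under median-of-ratios scaling, and 51.0% under quantile normalization, and these genes split into 7 higher and 13 lower, 8 and 13, and 9 and 12. For the WT regions the shares were 65.4, 55.6 and 51.5%, and the splits 10 and 10, 9 and 12, and 9 and 11. The 4 genotype counts were 0 under every alternative run. Of 640 values under alternatives for 56 tests of single genes, 75 lost a call, 0 gained one and 0 changed direction. Among the 56 tests, 40 were calls and so could not gain one, and 19 of these 40 held under all alternatives run. Regional tests were among the 56 only where they had passed, so regional calls gained by other genes are not counted here. Replicate numbers go with Xist and Ddx3y in all groups. Deviations of same-numbered libraries correlated by only 0.012 to 0.074 between the groups compared directly. Between SMA motor neurons and WT white matter the correlation was -0.34, and between WT motor neurons and SMA white matter it was 0.080. With the number as a block 20 genes passed between the SMA regions and 18 between the WT regions, and the calls of Fgf15 in SMA (limma adjusted p = 0.0526) and of Acvr1 (0.0562) and Bmp1 (0.0579) in WT were lost. With 2 libraries per group, small differences were not detectable.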
